A study of Mus musculus with 8 samples.

Results

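For neural cell adhesion, 9 genes were looked up by symbol in the expression table, and 9 of 9 were found among its 23361 genes: Ncam1, Ncam2, L1cam, Nrcam, Cntn1, Nrxn2, Nrxn3, Nlgn1 and Nlgn2. The rule picks them by name, from a set put together with earlier results of these data known. Tumors of the gastric squamous-columnar junction (SCJ), where the squamous lining of the forestomach meets the glandular stomach, gave 5 cancer libraries with the labelled genotype Trp53-/-Rb1-/-. Control SCJ tissue of wild-type mice of matched age gave 3 libraries. The study's methods speak of control mice that were given tamoxifen, without saying whether these wild-type mice were among them. In the mice with tumors a tamoxifen-inducible Cre knocked in at Lgr5 had removed floxed Trp53 and Rb1 in adults, and the tumors were taken many months later along borders marked by the tdTomato reporter Ai9. Since the Cre acts only in Lgr5-expressing cells and their descendants, stroma, vessels and uninduced epithelium in a tumor piece keep both genes, and the control pieces hold squamous and glandular epithelium with the tissue around it. Each library was labelled as its own sample, no label says whether several mice were pooled, and p-values therefore measure the spread between these 8 samples.

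Neural cell adhesion molecules are membrane proteins with which neurons, glia and many endocrine cells hold on to each other. NCAM1 (CD56), NCAM2, L1CAM, NrCAM and contactin 1 carry immunoglobulin domains and bind themselves or one another, and NCAM1 is a common stain for neuroendocrine tumors. Neurexins sit on the sending side of a synapse and bind neuroligins on the receiving side, where neuroligin 1 is typical of excitatory and neuroligin 2 of inhibitory contacts. In a normal stomach these molecules are known mainly from the nerve plexuses of the wall and from endocrine cells.

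In the cancers 3 members rose, Ncam1, Nlgn2 and Nrxn2, and none fell, where limma called 16.2% of all tested genes higher and 18.3% lower (34.5% in all). Ncam1 and Nlgn2 were at or below 1 FPKM in every control, while every cancer had 4 to 17, and Nrxn2 went from a listed 0, from which it could only go up, to between 1 and 3. L1cam was the only member above 1 in the controls, and its range there lay within that of the cancers. Of the remaining 5 members, Nrcam was listed at 0 throughout. Ncam2, Cntn1, Nrxn3 and Nlgn1 were listed at 0 in the controls and above 0 in only some of the cancers. Their highest value was 9 FPKM, for Cntn1 in cancer 5.

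FPKM (fragments divided by transcript length and by the size of the library) is a level per length, so that genes can be compared with each other. The deposited values are whole numbers, and most members sit at a few units, where 1 step is a large part of the value. The table gives no read numbers, and sequencing depth is unknown. Sums over all genes ran from 403569 to 573858 FPKM in the cancers and from 887141 to 992550 in the controls, and the 10 most abundant genes took 11.1% to 19.6% and 39.3% to 44.3% of these sums. A listed 0 need not mean absence, since Pgc had 28832 FPKM in control 1 and was listed at 0 in controls 2 and 3. The deleted genes were looked at to check the labels. Rb1 had 4, 4, 5, 6 and 4 FPKM in the cancers, against 9, 9 and 10 in the controls, and Trp53 had 12, 22, 12, 30 and 12 against 16, 17 and 19. On the log2(FPKM + 1) scale Rb1 differed by -0.90 (adjusted p = 0.0059 from limma), and Trp53 overlapped with a difference of -0.08 (adjusted p = 0.87 from limma). After quantile normalization these differences were -0.90 (adjusted p = 0.015 from limma) and 0.13 (adjusted p = 0.79 from limma). Rescaling every library to the same sum moved the median of all tested genes from -0.038 to 0.81, and with it Rb1 to -0.054 (adjusted p = 0.84 from limma) and Trp53 to 0.86 (adjusted p = 0.020 from limma). Whole-gene values do not show the deleted exons. 

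**Figure D1:**
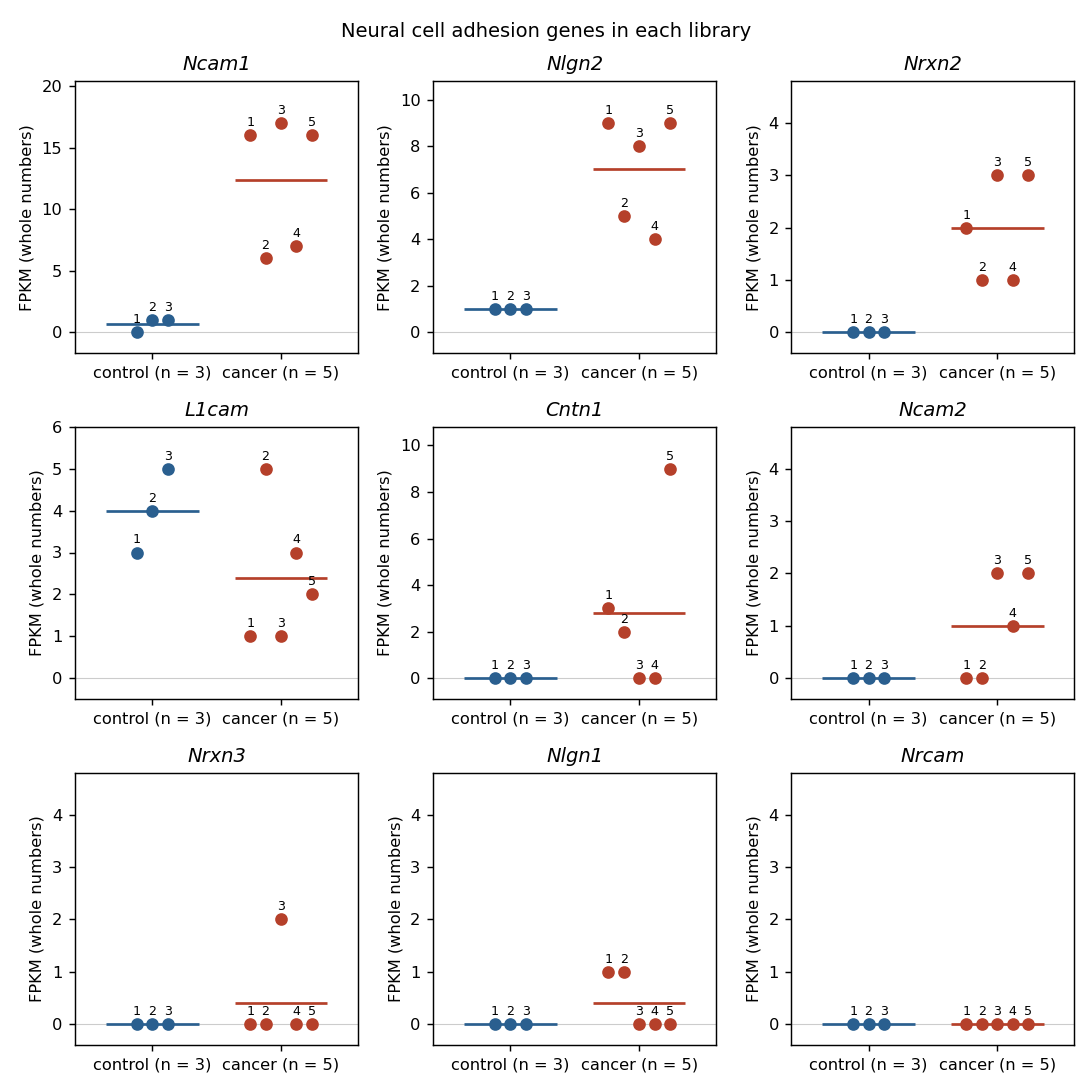
FPKM of the 9 neural cell adhesion genes on linear axes, 1 point per library, numbered by replicate, with a line at the group mean, for 3 controls (blue) and 5 cancers (red). Ncam1, Nlgn2 and Nrxn2 lie higher in each cancer than in each control, L1cam overlaps, and Nrcam is listed at 0 in all 8 libraries.

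For the genes that could be matched to a RefSeq promoter window, the sequence around the start site is given before the levels, to show the regions from which 1 gene that rose (Nlgn2), its paralog that stayed near 0 (Nlgn1) and 1 gene without a detected difference (L1cam) are read. Windows of 250 bases before and 50 after the start were found for 7 of the 9 members, all but Ncam1 and Nrxn2. The windows are from RefSeq on GRCm38.p6, which has the coordinates of mm10. The 3 windows shown run 5′ to 3′ on the minus strand. Capitals mark matches on either strand to CAGCTG (an E-box), GGGCGG (a GC box, read as CCGCCC on the other strand) or TTCAGCACC (the left part of the RE1 element bound by the repressor REST).
Nlgn2, chr11:69837735-69838034: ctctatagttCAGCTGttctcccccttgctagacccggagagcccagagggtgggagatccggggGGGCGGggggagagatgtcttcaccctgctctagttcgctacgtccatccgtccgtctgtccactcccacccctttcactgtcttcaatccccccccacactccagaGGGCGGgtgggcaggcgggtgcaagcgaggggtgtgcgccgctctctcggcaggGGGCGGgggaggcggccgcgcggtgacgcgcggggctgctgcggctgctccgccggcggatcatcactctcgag
Nlgn1, chr3:26331860-26332159: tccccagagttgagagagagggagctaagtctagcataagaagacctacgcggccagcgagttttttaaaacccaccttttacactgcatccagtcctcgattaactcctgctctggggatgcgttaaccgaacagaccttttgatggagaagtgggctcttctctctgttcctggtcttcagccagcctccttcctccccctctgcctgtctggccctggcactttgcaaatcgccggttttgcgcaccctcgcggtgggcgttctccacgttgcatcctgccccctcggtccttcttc
L1cam, chrX:73880785-73881084: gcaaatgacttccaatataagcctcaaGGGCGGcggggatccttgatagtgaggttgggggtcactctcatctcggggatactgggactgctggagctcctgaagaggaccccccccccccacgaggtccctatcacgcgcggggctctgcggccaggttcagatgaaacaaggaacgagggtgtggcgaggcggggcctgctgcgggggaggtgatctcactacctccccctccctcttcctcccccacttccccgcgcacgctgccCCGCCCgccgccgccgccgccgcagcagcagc

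The Nlgn2 window held 1 E-box and 3 GC boxes, with 68.7% G and C and 26 CpG. That Nlgn2 start lies 2935 bases upstream of the gene's 5′ end in the deposited table. The L1cam window, at the start that the table also uses, held 2 GC boxes, no E-box and 22 CpG. The Nlgn1 window shown, also at the start that the table uses, held no match to the 3 motifs, with 55.7% G and C and 14 CpG. A further Nlgn1 window at an internal start, 177923 bases downstream, was the only one of the 13 member windows with the RE1 letters. Of the 32851 windows of all genes, 16.3% held CAGCTG, 35.7% GGGCGG and 0.371% TTCAGCACC. The median window had 52.7% G and C and 7 CpG. A match is a run of letters and was not tested as a binding site.

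Ncam1 (Entrez 17967, chromosome 9, 49502146 to 49799069, mm10, minus strand) codes for the neural cell adhesion molecule itself. Its FPKM were 16, 6, 17, 7 and 16 in cancers 1 to 5 and 0, 1 and 1 in controls 1 to 3. Cancers 1, 3 and 5 stood close together, cancers 2 and 4 were lower, and even the lowest cancer was above the highest control. The mean in the cancers, 12.4 ± 5.41 (SD, n = 5), exceeded that of 77.7% of the genes in the table, whereas in the controls Ncam1 exceeded 44.7%. The ratio of the group means was 18.6. If each value had been rounded to the nearest whole number, this ratio could lie anywhere between 10.2 and 38.7. On the log2(FPKM + 1) scale, which understates changes of low genes, Ncam1 rose by 2.96 (standard error 0.42, 95% interval 1.98 to 3.95, adjusted p = 0.0031 from limma). For Ncam1 an exact permutation test of the means (two-sided) gave p = 0.036, the smallest value that 5 against 3 samples allow here. A transcript antisense to Ncam1, Gm11149, overlaps exons of it, and the counting of strands is not given in the sources used here, but Gm11149 had 1 FPKM in cancer 1 and was listed at 0 elsewhere.

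Ncam2 (Entrez 17968, chromosome 16, 81200697 to 81624287, plus strand), a relative of Ncam1 known best from olfactory axons, had 0, 0, 2, 1 and 2 FPKM in the cancers and was listed at 0 in the 3 controls. Its levels overlapped between the groups, and its difference of 0.83 on the log2(FPKM + 1) scale (standard error 0.43, adjusted p = 0.16 from limma) did not pass the threshold of 0.05. The 95% interval of this difference, -0.17 to 1.83, leaves room for a rise of the size seen for Nrxn2. Both NCAM genes were at 2 FPKM or above in cancers 3 and 5, where Ncam1 had 17 and 16.

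L1cam (Entrez 16728, chromosome X, 73853780 to 73880834, minus strand), an axon growth and migration molecule, had 1, 5, 1, 3 and 2 FPKM in the cancers, against 3, 4 and 5 in the controls. Cancers 2 and 4, the lowest for Ncam1, were the highest for L1cam and lay inside the range of the controls. The group means were 2.4 ± 1.67 (SD, n = 5) and 4.0 ± 1.0 (SD, n = 3). The L1cam difference was -0.67 on the log2(FPKM + 1) scale (standard error 0.39, 95% interval -1.57 to 0.23, adjusted p = 0.20 from limma), and the exact permutation test gave p = 0.25. After quantile normalization the L1cam difference was -0.90 (adjusted p = 0.14 from limma). After every library was rescaled to the same sum, it turned to 0.015 (adjusted p = 0.98 from limma), with the shift of all genes given above. Nrcam (Entrez 319504, chromosome 12, 44328885 to 44601846, plus strand), the other L1 family gene of the set and a component of nodes of Ranvier, was listed at 0 in all 8 libraries.

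Cntn1 (Entrez 12805, chromosome 15, 92051165 to 92341967, plus strand), a lipid-anchored partner of L1 family proteins, had 3, 2, 0, 0 and 9 FPKM in the cancers and was listed at 0 in the 3 controls. Cancer 5 was the highest by 6 FPKM, and cancers 3 and 4 could not be told from the controls. The Cntn1 difference of 1.38 on the log2(FPKM + 1) scale had a standard error of 0.75 and did not pass the threshold (95% interval -0.36 to 3.12, adjusted p = 0.18 from limma). Among the 6 genes tested it had the widest interval.

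Nrxn2 (Entrez 18190, chromosome 19, 6418738 to 6533217, plus strand), a presynaptic neurexin, had 2, 1, 3, 1 and 3 FPKM in the cancers and was listed at 0 in the controls. Every cancer lay above every control, by a margin of 1 step of the table in cancers 2 and 4. Nrxn2 rose by 1.52 on the log2(FPKM + 1) scale (standard error 0.28, 95% interval 0.86 to 2.17, adjusted p = 0.0073 from limma), and no fold is given because the controls are at 0. It entered the test only through the cancers, and 57.3% of the 1082 tested genes at 0 in every control were called, all such genes having to differ upward. Nrxn3 (Entrez 18191, chromosome 12, 88794504 to 90334933, plus strand) had 2 FPKM in cancer 3 and was listed at 0 in the 7 other libraries. With a value above 0 in 1 library, Nrxn3 was below the filter and was not tested.

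Nlgn2 (Entrez 216856, chromosome 11, 69823123 to 69834849, minus strand), the neuroligin of inhibitory synapses that has also been described in pancreatic beta cells, had 9, 5, 8, 4 and 9 FPKM in the cancers, against 1, 1 and 1 in the controls. Again cancers 2 and 4 were the lowest, and the groups were 3 FPKM apart at their closest. The cancers averaged 7.0 ± 2.35 (SD, n = 5), a ratio of 7.0 to the control mean that rounding could place between 4.33 and 15.0. Nlgn2 rose by 1.94 on the log2(FPKM + 1) scale (standard error 0.26, 95% interval 1.33 to 2.56, adjusted p = 0.0027 from limma), with p = 0.036 in the exact permutation test. Nlgn1 (Entrez 192167, chromosome 3, 25431841 to 26331909, minus strand), the neuroligin of excitatory synapses, reached 1 FPKM in 2 libraries, cancers 1 and 2, with 0 listed for the other 6. It was not tested. The neuroligins therefore differed in level, with Nlgn2 at 4 FPKM or more in every cancer and Nlgn1 at 1 or less.

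Of the 9 members, 6 passed the filter of at least 1 FPKM in at least 3 libraries, and 3 of these 6 (Ncam2, Cntn1 and Nrxn2) were at 0 in every control and passed only through the cancers. The 3 members called by limma were all higher, and 0 were lower, also at an unadjusted p under 0.05. Of all 14357 tested genes 34.5% were called, 16.2% higher and 18.3% lower. By the other measure, 3 members had each cancer above each control, as had 14.4% of all tested genes, and 0 members lay the other way, as did 19.8% (34.1% in either direction). With 6 genes tested these shares are a description.

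**Figure D2:**
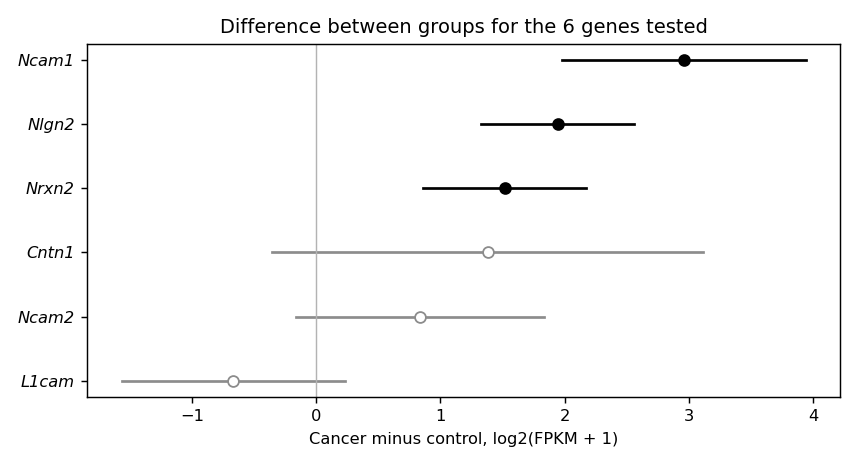
Difference between 5 cancers and 3 controls on the log2(FPKM + 1) scale for the 6 members tested. Points are limma estimates, bars are 95% intervals, and filled points passed an adjusted p of 0.05. Ncam1, Nlgn2 and Nrxn2 lie above 0 with their whole interval, and Cntn1, Ncam2 and L1cam have intervals that include 0.

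The summed level of the members differed between the groups, and so did the shares of L1cam and Ncam1 in it. The summed FPKM of the 9 genes was 32, 20, 33, 16 and 41 in cancers 1 to 5 and 4, 6 and 7 in controls 1 to 3. The share of L1cam was 75.0%, 66.7% and 71.4% in the controls, compared with 3.0% to 25.0% in the cancers. At control sums of 4 to 7 FPKM 1 rounding step moves a share far, and the level of L1cam itself showed no detected difference. Ncam1 made up between 30.0% and 51.5% in the cancers and at most 16.7% in the controls. In each cancer Ncam1 was the highest of the 9 genes. Nlgn2 came next or level with another member in every cancer, level with L1cam at 5 FPKM in cancer 2 and with Cntn1 at 9 FPKM in cancer 5. Below these, Cntn1, L1cam, Nrxn2 and Ncam2 had ranges that overlapped in the cancers, and their order is within the spread. In the controls L1cam was the highest in each library and only Nlgn2 and Ncam1 were above 0 beside it.

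Levels of Ncam1, Nlgn2, Nrxn2 and L1cam were set beside markers of other cells, whose part in the results was not tested. A lower level in a bulk sample cannot be split into fewer cells of a type and less RNA per cell. A set of 9 gastric gland genes (Atp4a and Atp4b of the acid pump, Muc5ac, Tff1, Tff2, Gkn1, Gkn2, Gif and Muc6, with Pgc left out for its zeros) summed to 691, 74170, 5434, 48804 and 16194 FPKM in cancers 1 to 5 and to 211920, 158537 and 224870 in the controls. Cancers 2 and 4, with the highest gland sums among the cancers, were those with the least Ncam1, Nlgn2 and Nrxn2 and the most L1cam. The 10 endocrine genes summed to 15859, 8284, 18480, 15585 and 17176 FPKM in cancers 1 to 5 and to between 129 and 193 in the controls, and 9 of the 10 were called higher. Chga, the granin of secretory granules, had at least 3247 FPKM in every cancer and at most 152 in the controls. The 10 squamous genes summed to 9, 27, 836, 3235 and 1070 FPKM in the cancers and to 4167, 6573 and 5135 in the controls.

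**Figure D3:**
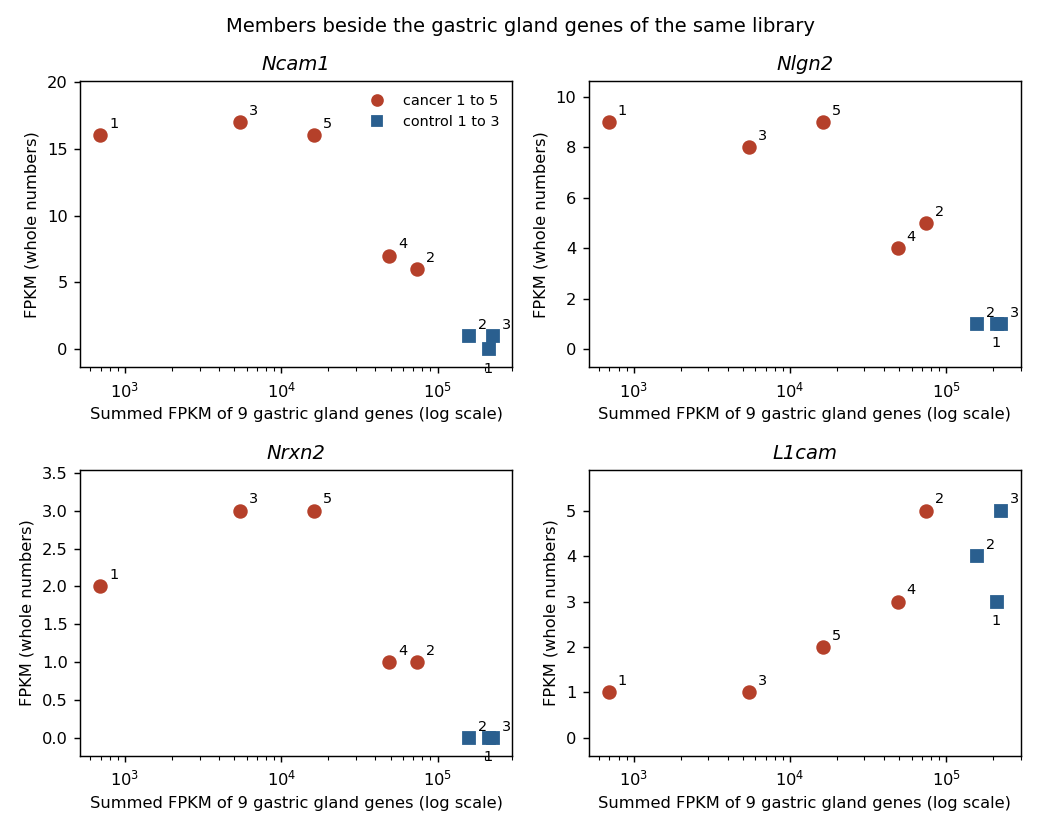
FPKM of 4 members (linear axes) against the summed FPKM of 9 gastric gland genes (log axis) in the same library, for cancers (red circles) and controls (blue squares), numbered by replicate. Cancers 2 and 4, with gland sums of 74170 and 48804, have less Ncam1, Nlgn2 and Nrxn2 and more L1cam than the other cancers.

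Cells in which neural adhesion genes are usual were looked for by their defining markers. Of the 10 glial markers Sox10, Cdh19 and Foxd3 were listed at 0 in all 8 libraries, and the whole list summed to between 5 and 25 FPKM in the cancers and between 35 and 49 in the controls. Erbb3, which epithelium also expresses, had 45, 33 and 48 FPKM of the sums of controls 1, 2 and 3. Of the 10 enteric neuron markers Chat was at 0 throughout. That list summed to between 84 and 113 FPKM in the cancers and between 10 and 13 in the controls, and limma called 3 of its 7 tested genes higher and 0 lower (0 also at an unadjusted p under 0.05). The 3 were Snap25, Ret, the receptor that signals with Gfra1, and Elavl4, a neuronal RNA-binding protein. Ret had 9, 5, 8, 4 and 15 FPKM in the cancers, against 1, 1 and 1 in the controls (adjusted p = 0.0058 from limma). Elavl4 had 2, 1, 3, 3 and 4 FPKM in the cancers and was listed at 0 in the controls (adjusted p = 0.0044 from limma), so that it passed the filter only through the cancers and could only differ upward. Their part in the results of the members was not tested. Snap25, shared with endocrine cells, had 33 to 91 FPKM of the sum in the cancers, and Vip, a transmitter of enteric nerves, overlapped with 0, 25, 5, 9 and 1 FPKM in the cancers, against 5, 4 and 2 in the controls. Of the adrenal medulla markers Th had 9, 8 and 1 FPKM in cancers 1, 2 and 3, and Dbh, Pnmt, Slc6a2, Hand1 and Phox2a were at 0 in every library. Of the 10 skeletal muscle markers Myh1, Myh4, Pvalb, Actn3 and Casq1 were at 0 in every library, and the list summed to between 2 and 26 FPKM in the cancers and between 15 and 22 in the controls. Smooth muscle genes summed to 48, 1733, 560, 392 and 78 FPKM in the cancers and to between 368 and 564 in the controls, and limma called 0 of 9 tested genes (0 also at an unadjusted p under 0.05).

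The genes whose course over the 8 libraries was most like that of a member were found by the root mean square difference of log2(FPKM + 1) after each gene was centred on its own mean, among 9126 genes with a mean of at least 5 FPKM. One of the 2 genes closest to Ncam1 was Syp, the synaptic vesicle protein synaptophysin, with 83, 41, 74, 37 and 87 FPKM in the cancers, against 4, 7 and 10 in the controls (difference 0.18). Closest to Nlgn2 were Rasa3, a Ras GTPase-activating protein (0.15), and Sepn1, selenoprotein N (0.16). Closest to Nrxn2 were Lix1l (0.097) and Cd99l2 (0.17). L1cam was closest to Sdsl (0.12) and to Ephb4, an ephrin receptor (0.17), which had 3, 8, 3, 5 and 4 FPKM in the cancers, against 6, 8 and 8 in the controls. Ncam2 was closest to Atp2c2 (0.28) and Rnf130 (0.29), and Cntn1 to Cidea (0.48) and the complement gene C4b (0.53), which fitted less closely. These likenesses are descriptions over 8 libraries that share the split into cancer and control.

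Relatives and partners of the members were read from 5 lists of 85 genes in all, of which 56 were tested. In limma 18 were higher and 9 lower, or 32.1% and 16.1% of those tested, beside 16.2% and 18.3% of all genes, and 15 of the 56 were at 0 in every control. Their median difference was 0.66 on the log2(FPKM + 1) scale, beside -0.038 for all genes tested.

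Among 12 relatives of L1 and the contactins, 6 were tested, and limma called Nfasc higher and 0 lower (0 also at an unadjusted p under 0.05), with 1 higher and 0 lower under both other scalings as well. Nfasc, an L1 family gene of axon initial segments, had 17, 6, 18, 12 and 36 FPKM in the cancers and was listed at 0 in the controls (difference 4.03 on the log2(FPKM + 1) scale, standard error 0.47, adjusted p = 0.0016 from limma). Its level was higher than that of L1cam in every cancer. Chl1, the close homolog of L1, had 1, 1, 4, 4 and 2 FPKM in the cancers, against 1, 2 and 1 in the controls (adjusted p = 0.38 from limma). In that list 6 genes, Cntn2, Cntn4, Cntn5, Cntn6, Cntnap5a and Cntnap5b, were at 0 in all libraries, and 3 of the 6 tested genes were at 0 in every control.

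Of 10 modifiers and signalling partners of NCAM, 6 were higher and 1 lower among 8 tested, and their median difference was 1.36 on the log2(FPKM + 1) scale. There were 4 higher and 1 lower after quantile normalization, and 7 and 0 after rescaling to the same sum. Over all 14357 tested genes the rescaled values gave 7176 higher and 528 lower. Gap43, a growth cone protein linked to NCAM-driven neurite growth, had 47, 25, 48, 20 and 52 FPKM in the cancers, against 1, 1 and 0 in the controls. Gap43 thus had its lowest cancer values in cancers 2 and 4, as Ncam1 had, and rose by 4.54 (standard error 0.40, adjusted p = 0.00078 from limma). Gfra1, the GDNF co-receptor that can act with NCAM, had 7, 4, 9, 7 and 10 FPKM against 0, 1 and 0 and rose by 2.69 (adjusted p = 0.0019 from limma). Fgfr1, a receptor through which NCAM and L1 can signal, had 9, 7, 15, 9 and 7 FPKM against 2, 2 and 2 and rose by 1.74 (adjusted p = 0.0027 from limma). Of the enzymes that add polysialic acid to NCAM, St8sia2 was at 0 throughout and St8sia4 had 3, 1, 1, 1 and 1 FPKM in the cancers and 0 in the controls (adjusted p = 0.012 from limma, 0.14 after quantile normalization). Agrn, the agrin of basement membranes and neuromuscular junctions, was lower at 7, 8, 7, 9 and 10 FPKM against 24, 16 and 16 (difference -1.08, adjusted p = 0.0055 from limma), and the difference was -0.92 (adjusted p = 0.011 from limma) after quantile normalization and -0.19 (adjusted p = 0.49 from limma) after rescaling to the same sum, which moved the median of all genes to 0.81.

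Among 23 synaptic adhesion partners, 10 were tested, 2 were higher and 1 was lower. After quantile normalization 2 were higher and 0 lower, and after rescaling to the same sum 6 and 0. That rescaling called 7176 of all 14357 tested genes higher and 528 lower. Nxph1 and Clstn3, the higher genes, were both at 0 in every control and passed the filter only through the cancers, as did 3 of the 10 tested. Nxph1, a secreted ligand of neurexins, had 10, 2, 13, 8 and 20 FPKM in the cancers and was listed at 0 in the controls (difference 3.28, adjusted p = 0.0055 from limma). Clstn3, a calsyntenin of synapses, had 1, 4, 4, 4 and 11 FPKM against 0 in each control (difference 2.31, adjusted p = 0.012 from limma). Ptprf, the receptor phosphatase LAR, which epithelium also expresses, had 27, 22, 21, 15 and 38 FPKM in the cancers, against 40, 39 and 50 in the controls (difference -0.84, adjusted p = 0.048 from limma), and was not called after quantile normalization (difference -0.44, adjusted p = 0.27 from limma) or after rescaling to the same sum (difference 0.11, adjusted p = 0.79 from limma), which moved the median of all genes to 0.81. The family member Nlgn3 had at most 1 FPKM in any library and was listed at 0 in the controls. In this list 10 genes, among them Lrrtm1, Lrrtm3, Lrrtm4, Cbln1, Cbln2 and Cbln4, were at 0 in all libraries.

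Of 24 cytoplasmic anchors, 20 were tested, 5 were higher and 7 lower. Of those tested 3 were at 0 in every control, among them Magi2 and Shank3, which were called higher. These passed the filter only through the cancers and could only differ upward. Dlg4 (PSD-95), which binds the tails of neuroligins, had 22, 11, 18, 8 and 15 FPKM in the cancers, against 1, 1 and 1 in the controls and rose by 2.91 (standard error 0.30, adjusted p = 0.0011 from limma). As with Nlgn2, cancers 2 and 4 were its lowest cancers. Gphn (gephyrin), another anchor of the list, had 12, 9, 13, 11 and 8 FPKM in the cancers, against 13, 16 and 14 in the controls. Gphn was not called (difference -0.42, adjusted p = 0.099 from limma). Apba1 (Mint1), an adaptor at the neurexin side, had 7, 2, 3, 2 and 6 FPKM against 0, 1 and 1 (difference 1.53, adjusted p = 0.029 from limma; adjusted p = 0.080 after quantile normalization). Magi1, a scaffold of epithelial junctions, was lower at 3, 6, 4, 6 and 4 FPKM against 16, 17 and 19 (difference -1.74, adjusted p = 0.0019 from limma). After quantile normalization 2 anchors were higher and 4 lower. After rescaling to the same sum, which turned the calls over all genes to 7176 higher and 528 lower, 7 anchors were higher and 1 lower. Magi1 was lower and Dlg4 higher under all of these scalings.

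Of 16 other neuronal immunoglobulin adhesion genes, 12 were tested and limma called 4 higher and 0 lower (0 also at an unadjusted p under 0.05), and 5 of the 12 were at 0 in every control. Thy1, a surface protein of neurons, fibroblasts and lymphocytes, had 10, 7, 8, 12 and 4 FPKM in the cancers, against 2, 3 and 3 in the controls (difference 1.27, adjusted p = 0.018 from limma). Dscam, a guidance molecule of neurons, had 4, 1, 1, 1 and 1 FPKM against 0 (difference 1.26, adjusted p = 0.023 from limma), and Cadm1 (SynCAM1) had 5, 10, 6, 7 and 7 against 4, 4 and 3 (difference 0.76, adjusted p = 0.029 from limma). After quantile normalization 2 genes of the list were higher and 0 lower, and Dscam, Cadm1 and Mdga1 were no longer called (adjusted p of 0.17, 0.092 and 0.29 from limma). After rescaling to the same sum 8 were higher and 0 lower, where 7176 of all 14357 tested genes were called higher and 528 lower. Dscaml1, Lsamp, Opcml and Mdga2 were at 0 in all libraries. The plot of related genes gives the differences of all 56 tested genes by list.

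**Figure D4:**
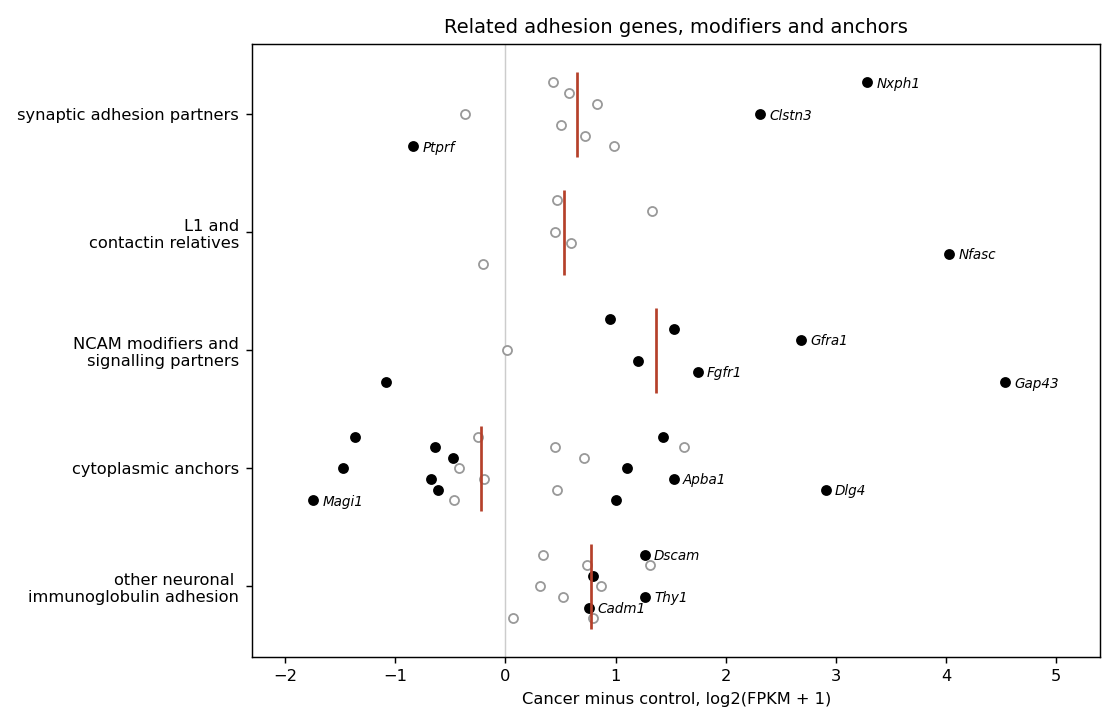
Difference between 5 cancers and 3 controls on the log2(FPKM + 1) scale for 56 tested genes of 5 lists, 1 point per gene, placed at arbitrary heights within its list. Filled points passed an adjusted p of 0.05 in limma, red lines are list medians, and the named genes are the up to 3 largest non-overlapping calls of each list. Gap43 at 4.54 and Nfasc at 4.03 lie farthest to the right and Magi1 at -1.74 farthest to the left.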

How the data were processed

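RNA of 5 SCJ cancers and 3 control SCJ tissues was sequenced from polyA-selected, directional libraries. The authors ran cutadapt 1.8 on the reads, assigned fragments to the mm10 genes of UCSC in cuffquant and obtained FPKM from Cuffnorm 2.2.1, and the submitters' processing notes also list TopHat2 2.0.13. The deposited values are FPKM given as whole numbers, and are handled here as a score and not as counts. The starts of the deposited loci count from 0 and were raised by 1.

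Genes with at least 1 FPKM in at least 3 samples (14357) were compared on log2(FPKM + 1) in R 4.3.3 by limma 3.58.1 (moderated with a mean-variance trend), and p-values were adjusted by Benjamini-Hochberg over all of them and a threshold of 0.05. For single members an exact permutation test over the 56 assignments of labels was added (scipy 1.17.1, two-sided by doubling the smaller tail). The fit was tested on simulated data. The members and lists were chosen with earlier results of these data known. Named genes were the members, up to 3 called genes per list with the largest non-overlapping difference, the 2 genes closest to each member and leading or absent markers. St8sia2, St8sia4, Agrn, Chl1, Nlgn3, Mdga1, Gphn, Magi2, Shank3, Elavl4, Gm11149 and the related genes at 0 were named after their values were seen. Leaving Pgc out of the gland sum was decided then too. Alternatives were another pseudocount (0.1), other filters, 2 other scalings, a fit without the trend, array weights, a block for the replicate number and leaving out each sample. Some single genes that these rules name are not reported here.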

Additional observations from a re-analysis of the deposited data

How the results depend on the processing

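Ncam1, Nlgn2 and Nrxn2 were called higher under every alternative that tested them except the replicate block, and in each of the 8 fits that left out 1 sample (3 members called, 3 higher, 0 lower throughout). Array weights called 5 members, 4 higher and 1 lower, adding Ncam2 (1.07, adjusted p = 0.021 from limma) and L1cam (-0.91, adjusted p = 0.021 from limma). With a mean of at least 5 FPKM only Ncam1 of the members was tested, and 1 was called, 1 higher. L1cam turned to 0.015 after rescaling to the same sum. No label says that cancers and controls with the same number belong together, although the control mice were matched in age. Their deviations from the group means correlated at -0.021, -0.19 and -0.10. These correlations cannot settle whether samples with the same number shared an age or a batch. The replicate block called 1 member, 1 higher (Nlgn2), with Ncam1 at 3.02 (adjusted p = 0.062 from limma) and Nrxn2 at 1.53 (adjusted p = 0.054 from limma), and in all 1534 genes (982 higher, 552 lower), with 1327 genes in common with the fit without a block.

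The count of changed genes was 4948, with 2326 higher and 2622 lower. It was 7704 (7176 and 528) after rescaling to the same sum, where the median of all genes moved to 0.81, and 8148 (3909 and 4239) with array weights. With a mean of at least 5 FPKM 1244 were higher. Leaving out 1 sample gave 2548 to 5232 genes, 1362 to 2459 higher and 1186 to 2773 lower, with 2548, 2700 and 2874 without control 1, 2 and 3 and 1665 lower without cancer 3. Of the related genes 27 were called, 18 higher and 9 lower. There were 17 (8 higher) with a mean of at least 5 FPKM, 16 (11 and 5) after quantile normalization, 10 (7 and 3) with the replicate block, 29 higher and 1 lower after rescaling, and 28 higher with array weights. Leaving out 1 sample gave 16 to 27, 10 to 19 higher and 6 to 9 lower, with 16 (10 higher) without control 1 and 11 higher without control 3. The stricter filter tests fewer genes, and otherwise the cause was not tested. The whole-number values limit what can be said of members at 0 to 3 FPKM.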
